A study of Mus musculus with 6 samples.

Results

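Zp1, Zp2 and Zp3 encode the glycoproteins of the mouse zona pellucida, the extracellular coat of the egg. They were the 3 rows with these names among the 22416 genes of a table of ribosome footprints from mouse oocytes. Ribosome footprints are stretches of mRNA that a bound ribosome protects from digestion, and they were obtained by Ribo-lite, a form of ribosome profiling for scarce material. There were 6 libraries of 500 oocytes each, with n = 2 in each of 3 groups, and all oocytes were of WT genotype. WT_FGO were oocytes at the end of growth, arrested at the germinal vesicle stage. WT_MII were control oocytes that had been matured to metaphase II with the solvent DMSO. Treat_MII were treated oocytes labelled as metaphase II. The study states DMSO for its control oocytes of both stages. The labels do not name the treatment, and the study names it as BYBX, a ligand that stabilizes RNA G-quadruplexes (rG4s). The study reports that BYBX lowered the rate of polar body emission and that treated oocytes had abnormal spindles. How far the Treat_MII oocytes had progressed in meiosis is not given for these libraries. The part of meiotic progress in the values was not tested. An rG4 is a compact fold that G-rich RNA can take up. The donors were C57BL/6 females of 4 weeks that had received 5 IU of PMSG, a gonadotropin that drives follicle growth, and oocytes were collected 44 h later and matured in M16 medium. The questions were how far the zona footprints changed during maturation and whether they differed with the treatment.

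The growing oocyte makes and secretes the zona proteins while the follicle develops. ZP2 and ZP3 polymerize into filaments through a shared module, the ZP domain, and ZP1 cross-links these filaments. Sperm bind the finished matrix, and after fertilization ZP2 is cleaved, which ends sperm binding. Since the coat is complete before ovulation, zona transcripts are known to be abundant in the growing oocyte and to be degraded during maturation.

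The loci lie on separate chromosomes of the mouse GRCm38 assembly (mm10). Zp1 (ENSMUSG00000024734.8) spans chr19:10914287-10920632 on the minus strand, Zp2 (ENSMUSG00000030911.7) spans chr7:120126772-120145291 on the minus strand, and Zp3 (ENSMUSG00000004948.12) spans chr5:135980099-135988624 on the plus strand. In the GENCODE annotation no exon of another gene overlapped their coding exons. Of all stretches of 28 bases in the coding sequence, about the length of a footprint, 0 of 1845 in Zp1, 13 of 2115 in Zp2 (0.615%) and 0 of 1248 in Zp3 were found in a transcript of another gene. Reads shared with identical stretches of other transcripts could thus touch little of these values, and copies with mismatches were not searched.

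The start codons are shown first, because footprints measure translation from here onwards. Each line holds 10 bases of the 5′-UTR and the first 20 bases of the coding sequence, with the ATG in capitals. They are read from the mRNA strand in the first exon, at chr19:10920556-10920585 for Zp1, chr7:120145241-120145270 for Zp2 and chr5:135980124-135980153 for Zp3.
Zp1 start: gacctccatcATGgcctggggttgttttgt
Zp2 start: accttccaacATGgcgaggtggcagaggaa
Zp3 start: aggcgggaccATGgcgtcaagctatttcct

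The untranslated regions of the 3 mRNAs were short. In the longest coding transcript the 5′-UTR measured 57 bases in Zp1, 30 in Zp2 and 35 in Zp3, against a median of 162 bases over the 14816 tested genes with such a transcript. The 3′-UTR measured 34, 49 and 13 bases, against a median of 856 bases. A 3′-UTR of at most 49 bases was annotated for 4.32% of these genes. The 30 bases around the polyadenylation signal AATAAA (in capitals) near the end of each mRNA are shown, at chr19:10914297-10914326, chr7:120132360-120132389 and chr5:135988595-135988624.
Zp1 polyadenylation signal: ttaaatggactcAATAAAccattgtttgaa
Zp2 polyadenylation signal: attggacttgcaAATAAAgagactgcagtt
Zp3 polyadenylation signal: tatcccttccgcAATAAAagaagaaactca

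The 3′ end is where mRNAs that are translated during maturation often carry cytoplasmic polyadenylation elements, which recruit the machinery that lengthens the poly(A) tail. Neither of the forms searched on the mRNA strand, TTTTAT and TTTTAAT, occurred in the last 100 bases of the 3 zona mRNAs, and 17.6% of the 14816 transcripts held one there. In the zona mRNAs part of these 100 bases is coding sequence, whereas the median 3′-UTR was 856 bases. At such a share, absence from 3 genes sets nothing apart. AATAAA stood in the last 100 bases of all 3 zona mRNAs and of 63.0% of the transcripts. These matches describe letters, not sites.

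Since the agent binds rG4s, the G-richest 30 bases of each coding sequence are given as well, with runs of 3 or more G in capitals. They lie at chr19:10920444-10920473, chr7:120145229-120145258 and chr5:135980312-135980341, each within 1 exon.
Zp1 G-richest: tgtGGGGtacGGGGcatgcagctgctggtg
Zp2 G-richest: ggcgaggtggcagaggaaagcatctgtaag
Zp3 G-richest: ttggcacGGGGaagctggtgcagcccGGGG

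These stretches held 15, 13 and 15 G. The strict rG4 motif (4 runs of 3 or more G on the mRNA strand, separated by loops that are 1 to 7 bases long) was absent from the whole of the 3 mRNAs. It was present in 13.3% of the 5083 transcripts of 1000 to 2500 bases, the range that holds the 3 zona mRNAs. A looser motif with runs of at least 2 G was present in all 3 zona mRNAs and in 96.2% of all 14816 transcripts, so it set nothing apart. The motif search says nothing about folding in the oocyte.

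The deposited unit was FPKM, which scales reads to the coding length and to the reads of the library. The reads behind each value could be recovered and totalled 94309 and 107251 in WT_FGO, 164972 and 230907 in WT_MII, and 331304 and 275604 in Treat_MII. Depth thus differed between groups, and 48.2% to 57.2% of the genes were listed at 0 per library. All 6 oocyte markers checked (Gdf9, Bmp15, Dppa3, Ooep, Nlrp5 and Kit) had footprints in all 6 libraries. Granulosa markers, which would mark adhering follicle cells, summed to 534 FPKM over 10 genes in the second WT_FGO library and to between 84.1 and 135 FPKM in the other 5. That library had 7 of the 10 markers above 0, among them Amh with 35 reads, Inhba with 19 and Cyp11a1 with 12, while Tnfaip6 was at 0 in all 6 libraries. Cyp19a1 went the other way, with 24.7 FPKM in that library and 32.1 to 57.7 FPKM in the other 5. Has2 and Ptx3 were at 0 in the second WT_FGO library. The study calls the libraries of a group biological replicates but does not say whether they came from separate animals or collections, so p-values measure the spread between these libraries.

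Zona footprints were among the most abundant of the fully grown oocyte. Together the 3 genes held 3.26% of the reads in the first WT_FGO library (Wilson 95% interval 3.14% to 3.37%) and 1.68% in the second (1.60% to 1.76%). In WT_MII they held 0.288% (0.263% to 0.315%) and 0.316% (0.294% to 0.339%). In Treat_MII the share was 0.754% (0.725% to 0.784%) and 0.748% (0.716% to 0.781%). The 3 groups did not overlap, and the treated libraries lay between the other groups. How many other genes separate in this way was not counted, so the separation does not set the zona genes apart. The Wilson intervals cover counting error only, because PCR can copy 1 molecule into several reads.

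Zp2, the zona protein that is cleaved after fertilization, had the highest level of the 3 in 5 of the 6 libraries. It reached 8407 FPKM (1745 reads) and 4037 FPKM (953 reads) in WT_FGO, 774 FPKM (281 reads) and 856 FPKM (435 reads) in WT_MII, and 2109 FPKM (1538 reads) and 2094 FPKM (1270 reads) in Treat_MII. Among all genes above 0 of a library, Zp2 ranked 9 and 14 in WT_FGO, 127 and 126 in WT_MII, and 54 and 55 in Treat_MII. Both WT_FGO libraries were above both treated libraries, and both treated libraries were above both controls.

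Zp3, the partner of ZP2 in the filaments, followed the same order of groups. Its level was 7769 FPKM (932 reads) and 4164 FPKM (568 reads) in WT_FGO, 486 FPKM (102 reads) and 497 FPKM (146 reads) in WT_MII, and 1419 FPKM (598 reads) and 1429 FPKM (501 reads) in Treat_MII. Its rank went from 11 and 13 in WT_FGO to 210 and 233 in WT_MII, and was 81 and 84 in Treat_MII. It was the zona gene with the widest range between the groups.

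Zp1, the cross-linker, had the lowest level of the 3 in each of the 6 libraries. It was at 2211 FPKM (393 reads) and 1375 FPKM (278 reads) in WT_FGO, 296 FPKM (92 reads) and 340 FPKM (148 reads) in WT_MII, and 578 FPKM (361 reads) and 558 FPKM (290 reads) in Treat_MII. It ranked 47 and 72 in WT_FGO, 382 and 346 in WT_MII, and 193 and 208 in Treat_MII. The order of the groups was the same as for Zp2 and Zp3.

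**Figure D1:**
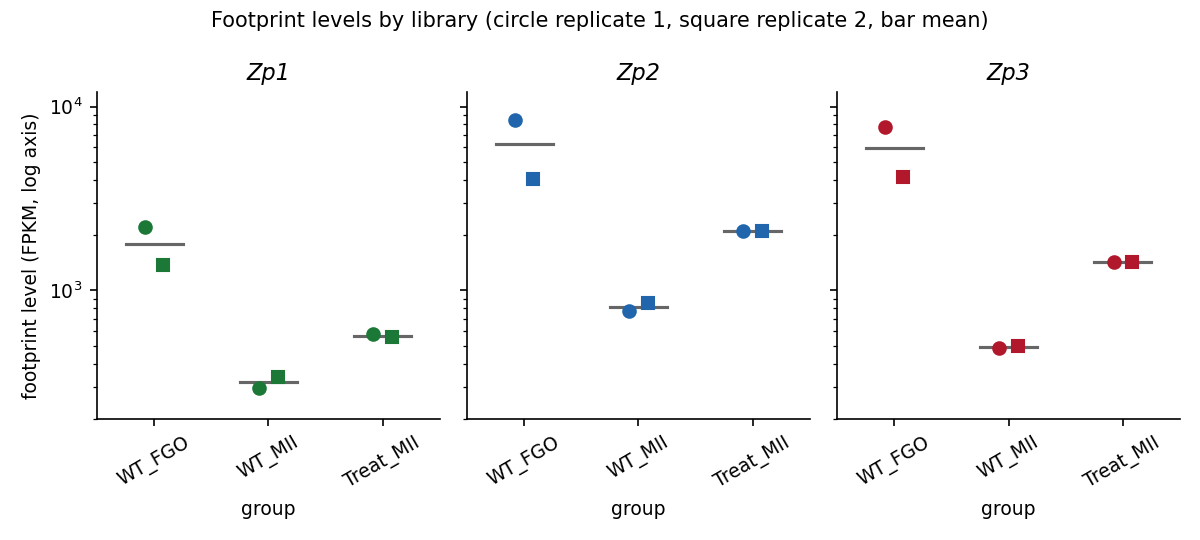
Footprint level of Zp1, Zp2 and Zp3 in each library, in FPKM on a log axis, by group; circles are replicate 1, squares are replicate 2 and bars are group means. For each gene the WT_FGO libraries are highest, the WT_MII libraries lowest and the Treat_MII libraries between them, and the WT_FGO pair lies further apart than the other pairs.

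The WT_FGO replicates differed beyond counting error, whereas the counting intervals of the other pairs included a ratio of 1. The first WT_FGO library was above the second by a ratio of 1.61 for Zp1 (exact 95% counting interval 1.38 to 1.88), 2.08 for Zp2 (1.92 to 2.26) and 1.87 for Zp3 (1.68 to 2.07). In WT_MII the same ratio was 0.870 (0.663 to 1.14), 0.904 (0.775 to 1.05) and 0.978 (0.752 to 1.27). In Treat_MII it was 1.04 (0.885 to 1.21), 1.01 (0.935 to 1.09) and 0.993 (0.880 to 1.12). The summed level of the 6 oocyte markers was also higher in the first WT_FGO library, at 30014 against 21075 FPKM, and the granulosa sum was higher in the second. Their part in the spread of the zona genes was not tested.

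During maturation the footprint levels of all 3 zona genes fell relative to the library. The mean level of Zp1 went from 1793 ± 591 FPKM in WT_FGO to 318 ± 31.2 FPKM in WT_MII (SD, n = 2 each), a ratio of 5.64, and the 4 pairs of libraries gave 4.04 to 7.47. Zp2 went from 6222 ± 3090 to 815 ± 58.0 FPKM, a ratio of 7.64 (4.72 to 10.9). Zp3 went from 5966 ± 2550 to 492 ± 7.78 FPKM, a ratio of 12.1 (8.38 to 15.98). The fall was thus beyond the spread between libraries for each gene, even against the lower WT_FGO library. For how many other genes this holds was not counted.

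In the limma fit over 15129 genes, 3 of 3 zona genes were called lower in WT_MII, while 3.09% of all tested genes were. That share includes many genes with few reads. In a fit on the 2706 genes of at least 60 reads, chosen after seeing the data, 509 genes were called lower, the 3 zona genes among them. On the log2(FPKM + 1) scale Zp1 fell by 2.45 (SE 0.29, limma adjusted p = 0.00898), while Zp2 fell by 2.84 (SE 0.34, limma adjusted p = 0.00960) and Zp3 fell by 3.53 (SE 0.31, limma adjusted p = 0.00338). The median change of all tested genes was -0.44, and only 5.39% of them had a lower change than Zp3, against 9.62% for Zp2 and 13.8% for Zp1. No group of 2 against 2 libraries can reach a two-sided exact permutation p below 0.333, so these calls rest on a spread shared across groups and genes. They were lost for all 3 genes without either WT_MII library and without either Treat_MII library. They were kept without either WT_FGO library, but the gap between the WT_FGO pair then no longer enters the spread. They were also lost for all 3 genes with no filter on low values, with no trend and with only the compared groups in the fit (adjusted p 0.0623 to 0.201). In a bulk footprint table, fewer mRNA molecules and fewer ribosomes per mRNA cannot be told apart, and RNA-seq of the same stages was not analysed here.

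**Figure D2:**
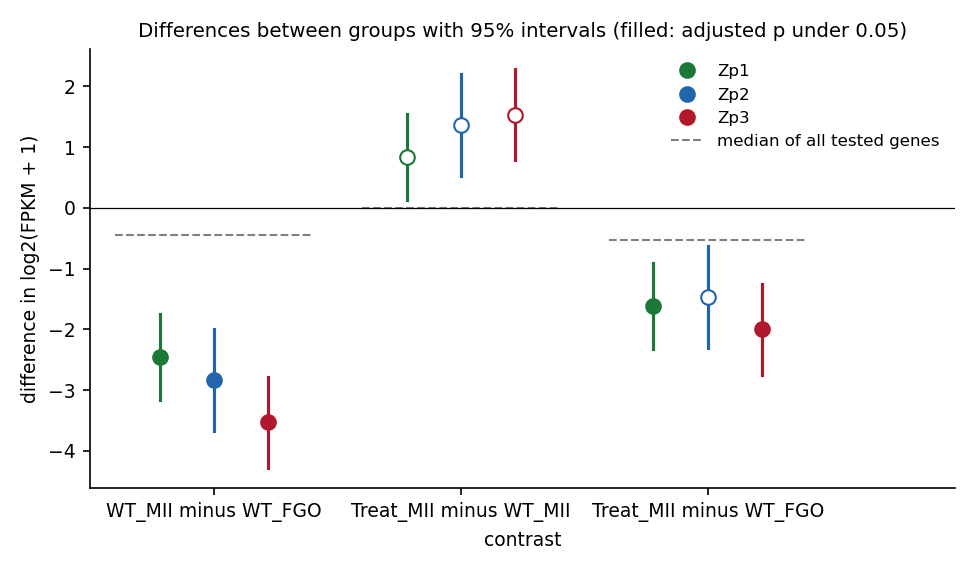
Difference between groups in log2(FPKM + 1) for Zp1, Zp2 and Zp3 in the 3 contrasts, with 95% intervals from limma; filled points had an adjusted p under 0.05 and dashed lines mark the median of all 15129 tested genes. The zona genes lie below the median in both contrasts with WT_FGO and above it in the contrast of Treat_MII with WT_MII, where none passed the threshold.

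Zona footprints were a larger part of the library in treated oocytes than in controls, but the adjusted test did not call them. FPKM is relative to the library, so footprints per oocyte were not measured. The ratio of the Treat_MII to the WT_MII mean was 1.79 for Zp1 (568 ± 14.0 against 318 ± 31.2 FPKM, SD, n = 2 each), and the library pairs gave 1.64 to 1.95. It was 2.58 for Zp2 (2101 ± 10.99 against 815 ± 58.0 FPKM; pairs 2.45 to 2.73) and 2.90 for Zp3 (1424 ± 7.14 against 492 ± 7.78 FPKM; pairs 2.85 to 2.94). For each gene the gap between the groups exceeded the spread within them. How many other genes separate in this way was not counted, so this does not set the zona genes apart.

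The limma differences between Treat_MII and WT_MII were 0.84 for Zp1 (95% interval 0.13 to 1.55), 1.37 for Zp2 (0.53 to 2.20) and 1.53 for Zp3 (0.78 to 2.28) on the log2(FPKM + 1) scale. The limma p before adjustment was 0.0279, 0.00706 and 0.00241, and the limma adjusted p over all genes was 0.836, 0.710 and 0.642. The spread behind these intervals and p-values is shared by all 3 groups, so it includes the gap between the WT_FGO libraries. The SE was 0.29, 0.34 and 0.31. With only the compared groups in the fit it was 0.14, 0.17 and 0.13, and the limma adjusted p was 0.348 for each gene. Thus 0 of 3 were called, and so were 0% of the 15129 genes, while 575 genes were higher and 306 lower at an unadjusted p under 0.05. The median change of all genes was 0, and 13.5% of them had a higher change than Zp3, 15.9% than Zp2 and 25.2% than Zp1. With voom weights on the recovered reads all 3 were called higher (adjusted p = 0.0490, 1.8e-19 and 5.66e-09), but the residual SD of Zp2 was then 5.55 against a shared value of 1.11, and the fit used the shared value. A weighted fit limited to the 2706 genes of at least 60 reads, which was chosen after seeing the data, gave adjusted p = 0.224 for Zp1, 0.0742 for Zp2 and 0.0464 for Zp3.

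Relative to the library, zona levels in treated oocytes stayed below those of fully grown oocytes. The WT_FGO mean was above the Treat_MII mean by a ratio of 3.16 for Zp1 (library pairs 2.38 to 3.96), 2.96 for Zp2 (1.91 to 4.02) and 4.19 for Zp3 (2.91 to 5.48). In limma 2 of 3 were called lower in Treat_MII, while 0.998% of all tested genes were. In the fit on the 2706 genes of at least 60 reads, 413 genes were called lower, the 3 zona genes among them. Zp1 fell by 1.62 (SE 0.29, limma adjusted p = 0.0426) and Zp3 fell by 2.00 (SE 0.31, limma adjusted p = 0.0261) on the log2(FPKM + 1) scale. Zp2 was lower by a similar amount, with a difference of -1.47 (SE 0.34), and missed the threshold with a limma adjusted p = 0.0825. The 3 contrasts share libraries, so they are not independent of each other. Leaving out either WT_FGO library brought Zp2 past the threshold, but the gap between the WT_FGO pair then no longer enters the spread. Leaving out any of the 4 metaphase II libraries took Zp1 and Zp3 out of it. No filter, no trend and only the compared groups took both out as well (adjusted p 0.133 to 0.279), and a pseudocount of 0.1 took out Zp1 (adjusted p = 0.0529). Centring each library on its median ratio also ended the calls of Zp1 (-1.04, adjusted p = 0.154) and Zp3 (-1.42, adjusted p = 0.0811).

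The balance between the 3 zona genes also differed between the groups in its values. FPKM is a level per coding length, so the genes can be set side by side within a library. In WT_FGO the summed zona FPKM was made up of 13.2 ± 1.65% Zp1, 43.9 ± 2.52% Zp2 and 42.9 ± 0.866% Zp3 (SD, n = 2). In WT_MII it was 19.5 ± 0.755% Zp1, 50.1 ± 0.575% Zp2 and 30.3 ± 1.33% Zp3. In Treat_MII it was 13.9 ± 0.282% Zp1, 51.3 ± 0.0442% Zp2 and 34.8 ± 0.326% Zp3.

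The share of Zp3 was lower in both metaphase II groups than in the fully grown oocytes, and the libraries did not overlap between any of the groups. The level of Zp3 over that of Zp1 came to 3.51 and 3.03 for WT_FGO, 1.64 and 1.46 for WT_MII, and 2.45 and 2.56 in Treat_MII. The level of Zp2 over that of Zp3 came to 1.08 and 0.970 for WT_FGO, 1.59 and 1.72 for WT_MII, and 1.49 and 1.46 in Treat_MII. Zp2 and Zp3 were thus nearly level in the fully grown oocyte, and Zp2 exceeded Zp3 in each of the 4 metaphase II libraries. The share of Zp1 in Treat_MII lay within the range of the WT_FGO libraries, which held 12.0% and 14.4%. With 2 libraries per group an exact permutation test of these shares cannot fall below p = 0.333, so they are given as values only.

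**Figure D3:**
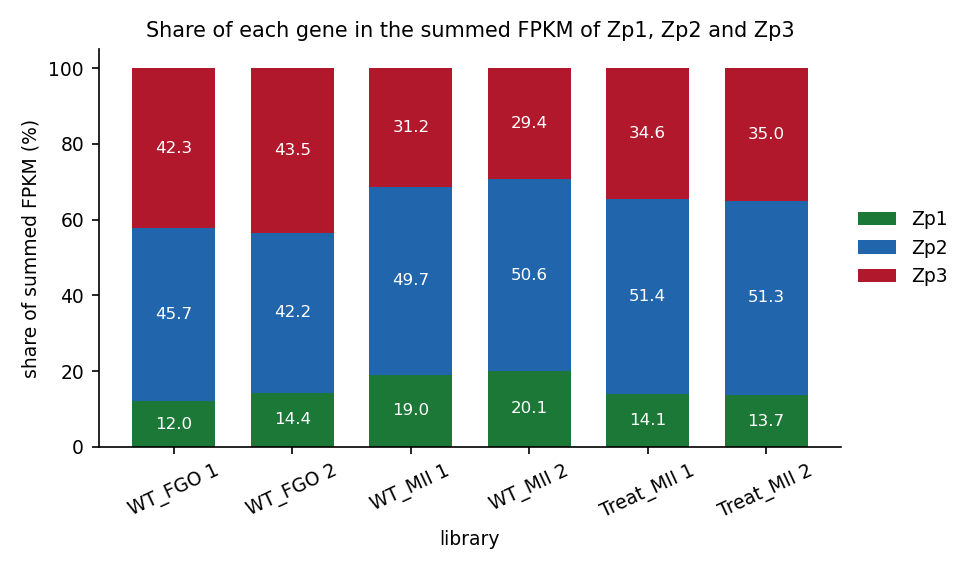
Share of Zp1, Zp2 and Zp3 in their summed FPKM, in percent, for each of the 6 libraries. The Zp3 segment shrinks from 42.3% and 43.5% in WT_FGO to 31.2% and 29.4% in WT_MII and holds 34.6% and 35.0% in Treat_MII.

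Other genes with a like pattern over the 6 libraries were ranked by the root mean square difference in log2(FPKM + 1), after each gene's own mean was subtracted, among 2008 genes of at least 50 FPKM. The nearest to Zp1 was Gyg, which encodes glycogenin, a primer of glycogen synthesis, at a distance of 0.112. It had 1974 and 1570 FPKM in WT_FGO. It then stood at 287 and 326 FPKM in the WT_MII group, and 552 and 580 FPKM in Treat_MII. Fbxw24 (0.155), Rspo2 (0.159), Eloc (0.162) and Cpsf4l (0.166) followed.

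For Zp2 the nearest were Nub1 (0.212), Fbxw24 (0.226) and Skp1a (0.228), with Zp1 in place 4 (0.248) and Puf60 in place 5 (0.266). Skp1a encodes a core subunit of SCF ubiquitin ligases, and F-box proteins are the substrate adaptors of these complexes. For Zp3 the nearest were Ftdc2 (0.188), the proteasome subunit gene Psmb4 (0.204), Bmp15 (0.221), which encodes an oocyte growth factor, the chaperonin subunit gene Cct5 (0.245) and Skp1a (0.259). Zp2 stood in place 9 and Zp1 in place 46 in the ranking of Zp3. The zona genes were therefore not each other's closest neighbours, although all lay in the same direction.

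Genes that regulate or act on the zona were taken from a list of 10, of which 9 passed the filter on low values. FIGLA is the transcription factor that binds the zona promoters, with TCF3 and TCF12 as its partners, and NOBOX, LHX8 and SOHLH1 are further oocyte transcription factors. During maturation 2 of the 9 were called lower and 0 higher, while 3.09% of all tested genes were called lower and 3.67% higher. The median change of the 9 was -1.65 against -0.44 for all tested genes. Lhx8 had 31 and 24 reads in WT_FGO, 1 and 1 in WT_MII, and 14 and 12 in Treat_MII. It fell by 5.44 on the log2(FPKM + 1) scale (SE 0.50, limma adjusted p = 0.00429). Nobox had 23 and 38 reads in WT_FGO, 2 and 8 in WT_MII, and 51 and 21 in Treat_MII, and fell by 3.73 (SE 0.66, limma adjusted p = 0.0297). Figla had 6 and 4 reads in WT_FGO, 0 and 0 in WT_MII, and 0 and 3 in Treat_MII, and was not called (limma adjusted p = 0.0600). Sohlh1 had 1 read in all 6 libraries together and was the gene that was not tested.

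The list also holds a protease that acts on the zona and its inhibitor. Astl encodes ovastacin, the cortical granule protease that cleaves ZP2, and Fetub encodes fetuin-B, a plasma inhibitor of ovastacin. Astl had 3591 and 1429 FPKM in WT_FGO. It then stood at 1454 and 1510 FPKM in the WT_MII group, and 1624 and 1643 FPKM in Treat_MII. Its WT_MII libraries lay within the spread of WT_FGO, and it was not called (difference -0.61, SE 0.41, limma adjusted p = 0.490). Fetub had 182 and 264 FPKM in WT_FGO. It then stood at 67.7 and 70.7 FPKM in the WT_MII group, and 98.5 and 77.9 FPKM in Treat_MII, with a difference of -1.65 for maturation (SE 0.38, limma adjusted p = 0.0614). Between treated and control oocytes 0 of the 9 genes were called, 8 of 9 differences were positive, and the median was 0.49 against 0 for all tested genes.

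Other proteins with a ZP domain were hardly represented. Of 11 such genes outside the zona, 2 (Zpld1 and Gp2) were at 0 in all 6 libraries, and 0 of the 8 tested were called in either direction during maturation. Umodl1 was the steadiest of them, with 36.7 and 43.8 FPKM in WT_FGO. It then stood at 36.0 and 32.1 FPKM in the WT_MII group, and 56.0 and 42.2 FPKM in Treat_MII. The ZP domain genes with appreciable footprints in these oocytes were thus Zp1, Zp2 and Zp3, and the others reached at most 55.98 FPKM in a library.

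Genes of the egg surface moved in both directions. Of 6 listed, 2 were called higher in WT_MII and 3 lower, while 3.67% of all tested genes were called higher and 3.09% lower. Cd9, a tetraspanin needed for gamete fusion, fell by 3.52 (SE 0.59, limma adjusted p = 0.0259), and Izumo1r, the sperm receptor JUNO, fell by 3.22 (SE 0.66, limma adjusted p = 0.0436). Oosp1 and Oosp3, which encode oocyte secreted proteins, rose by 6.43 (SE 0.25, limma adjusted p = 0.000604) and 7.72 (SE 0.44, limma adjusted p = 0.00117), whereas their relative Oosp2 fell by 1.78 (SE 0.24, limma adjusted p = 0.0143). The lower side of these changes rests on few reads. In WT_FGO Oosp1 had 7 and 12 reads and Oosp3 had 1 and 3, and in WT_MII Cd9 had 3 and 7 and Izumo1r 5 and 22. Oosp1 held 122 and 185 FPKM in WT_FGO, while the 2 control libraries at metaphase II had 11263 and 15029 FPKM and the treated pair had 14459 and 15094 FPKM. The treated pair of this gene thus lay near the higher control library (difference 0.18, SE 0.25, limma adjusted p = 0.989). The zona genes in treated oocytes lay between control and fully grown levels, and so did the group means of Oosp2, Cd9 and Izumo1r. Those means were 409, 100 and 86.5 FPKM in Treat_MII, 264, 35.8 and 66.9 in WT_MII, and 911, 460 and 546 in WT_FGO. For Oosp3 the treated libraries had 7518 and 7970 FPKM, above the controls.

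Among the 6 oocyte markers, 3 were called lower in WT_MII (Bmp15, Ooep and Nlrp5) and 0 higher, against 3.09% and 3.67% of all tested genes. Their median change was -1.24, and that of all tested genes was -0.44. Bmp15, a growth factor that the oocyte secretes like the zona proteins, had 3841 and 2077 FPKM in WT_FGO. It then stood at 237 and 169 FPKM in the WT_MII group, and 598 and 781 FPKM in Treat_MII. Gdf9, its close relative, had 5899 and 3883 FPKM in WT_FGO. It then stood at 2822 and 3417 FPKM in the WT_MII group, and 3550 and 3480 FPKM in Treat_MII, and was not called (limma adjusted p = 0.182). The treated means of Ooep (2281 FPKM) and Nlrp5 (1123 FPKM) also lay between those of WT_MII and WT_FGO. That of Dppa3 (1381 FPKM) lay below its WT_MII mean (1693 FPKM). Of the 7 tested granulosa markers 0 were called in either direction. In the contrast of Treat_MII with WT_MII 0 genes of any of these lists were called.

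**Figure D4:**
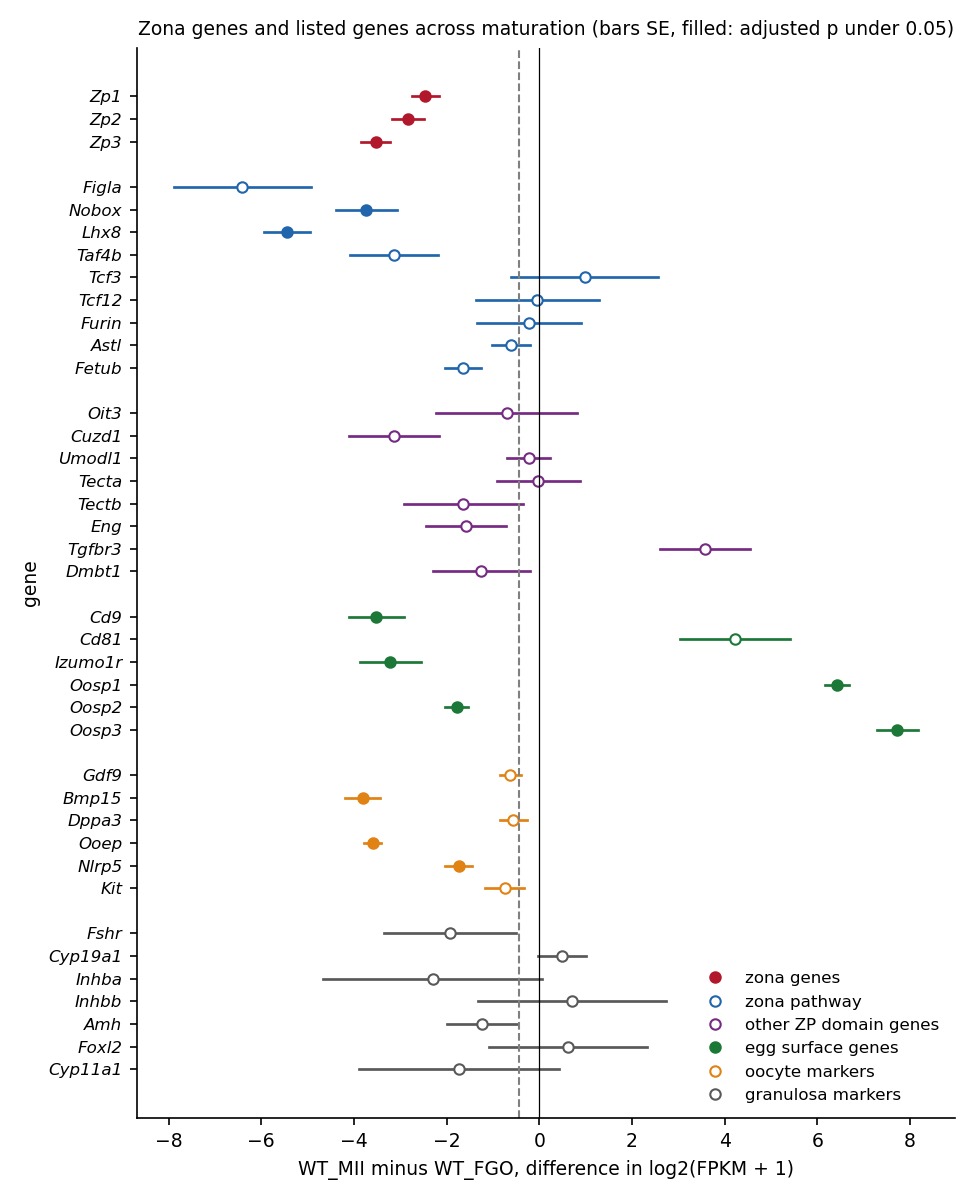
Difference between WT_MII and WT_FGO in log2(FPKM + 1) for the zona genes and the tested genes of the 5 lists, with bars of 1 SE; filled points had an adjusted p under 0.05 and the dashed line marks the median of all tested genes (-0.44). Zp1, Zp2 and Zp3 lie between -2.45 and -3.53, while Oosp1 and Oosp3 lie at 6.43 and 7.72.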

How the data were processed

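Ribo-lite footprints of 6 libraries were analysed. The deposited values were FPKM, which the authors computed per library from reads placed on mm10. The submitters' processing notes name cutadapt 1.14, Bowtie2 2.2.2 and STAR 2.5.3a. The counting program, annotation release and handling of molecular identifiers are not given in the sources used here, and no spike-in scaling is stated, so each value is relative to its own library. After 26 entries with repeated names were left out (the larger was kept), 22416 genes remained.

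FPKM multiplied by the union coding length in GENCODE M21 came out as whole reads in each library for 98.4% of the 21937 genes that have such a length (tolerance 0.02 reads). The samples were grouped by their labels. Genes whose mean reached 1 FPKM were tested on log2(FPKM + 1) with limma 3.58.1 (R 4.3.3; lmFit and eBayes with a trend, all 6 libraries, 3 group terms), adjusted by Benjamini-Hochberg and called under 0.05. Fold changes on this scale understate the change of low genes. In a run on simulated data the fit missed most genes with a log2 change of 2 in size. It also missed most genes with a log2 change of -4, and it called some unchanged genes. A gene that was not called may therefore still have changed, and a called gene may be unchanged. Transcript parts and sequences came from GENCODE M21 and were checked against the GRCm38.p6 genome. Figures were drawn with matplotlib in Python.

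The alternatives were another pseudocount (0.1), no filter or 5 FPKM, centring, quantile normalization, a common total, a replicate term, compared groups only, no trend, voom weights, at least 60 reads, and leaving out each library. Named genes were the 3 zona genes, the genes of the 5 lists, and for each zona gene the 5 nearest in pattern with a mean of at least 50 FPKM, above 0 in at least 5 libraries and without a predicted or clone name. The members and lists were chosen with earlier results of these data known.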

Additional observations from a re-analysis of the deposited data

How the results depend on the processing

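Directions of the 3 zona genes did not turn under any alternative run. Replicate numbers were not taken as pairs, since libraries of the same number deviated from their groups with correlations of only 0.0342, 0.0189 and 0.0176 (2706 genes). With the replicate block 788, 0 and 437 genes were called in the maturation, treatment and treated against fully grown contrasts, and Zp1 lost its call in the last (-1.62, adjusted p = 0.0601), the only call of the zona genes that the block changed. The maturation values of -2.45 (Zp1), -2.84 (Zp2) and -3.53 (Zp3) lost their calls with no filter, no trend and only the compared groups, with adjusted p from 0.0623 to 0.201. Leaving out single libraries gave -2.80 to -2.11 for Zp1, -3.37 to -2.31 for Zp2 and -3.98 to -3.08 for Zp3. For treatment, voom weights brought Zp1 (0.83), Zp2 (1.36) and Zp3 (1.53) past the threshold, and with at least 60 reads only Zp3 (1.53). Leave-one-out values ranged from 0.74 to 0.94, 1.29 to 1.44 and 1.52 to 1.55.

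For treated against fully grown oocytes, Zp1 lost its call with a pseudocount of 0.1 (-1.62), centring (-1.04), and, at -1.62, no filter, no trend and only the compared groups, and Zp3 with centring (-1.42) and, at -2.00, no filter, no trend and only the compared groups. Zp2 gained one with quantile normalization (-1.78), voom weights (-1.43), at least 60 reads (-1.47) and both together (-1.46). Leave-one-out values ranged from -1.96 to -1.27 for Zp1, -2.00 to -0.94 for Zp2 and -2.45 to -1.55 for Zp3. The cause of these changes was not tested.

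Genes called for maturation (555 higher, 468 lower) became 536 with no filter, 328 with no trend, 2378 with voom, 0 with only the compared groups and 0 to 1912 by leave-one-out. For treatment they became 27 with no filter, 165 with voom and 10 with voom and at least 60 reads. For treated against fully grown oocytes (432 higher, 151 lower) they became 59 with no trend, 2834 with voom, 1146 with at least 60 reads, 1424 with both, 32 with only the compared groups and 0 to 1615 by leave-one-out. Centring moved the split to 721 higher and 295 lower for maturation, and to 648 and 54 for treated against fully grown oocytes. Rescaling to a common total moved the levels of Zp2 in Treat_MII (2063 FPKM) and of Zp3 in WT_MII (507.8) and Treat_MII (1398) by more than 1 SD. As shares of reads, Zp1 held 14.3% in Treat_MII, Zp2 held 54.9%, 59.4% and 61.6% and Zp3 30.97%, 20.8% and 24.1% in WT_FGO, WT_MII and Treat_MII.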
